A study of Mus musculus with 29 samples.

Results

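The comparison described here asks what omega-3 phospholipids changed in the liver of mice that also received rosiglitazone. It sets 8 livers of mice given both supplements (cHF+PC+R) against 6 livers of mice given rosiglitazone alone (cHF+R), 14 of the 29 livers in the series, chosen by their labels. All were male C57BL/6N mice, 3 months old at the start, that ate a corn-oil high-fat diet (cHF) for 7 weeks, so the fat-rich diet and the drug are shared by both groups. In the cHF+PC+R diet about 7% of the lipid was replaced by a concentrate of phospholipids, rich in phosphatidylcholine, that carries the fatty acids EPA and DHA. Rosiglitazone was mixed in at a low dose, whose amount the labels do not state. The other 15 livers, 8 with phospholipids but no drug (cHF+PC) and 7 with the high-fat diet alone (cHF), serve below to set the same phospholipid difference without the drug beside it. Each liver was hybridised to its own 2-colour Agilent array, and each value is the log2 ratio of that liver (Cy5) to a common pool of all livers (Cy3), so that 0 stands for the level of the pool and a difference of 1 for a doubling.

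EPA and DHA are long-chain omega-3 fatty acids that serve as ligands of the nuclear receptor PPAR-alpha, the main switch of fatty acid oxidation in hepatocytes, and that hold back the transcription factors SREBP-1c and SREBP-2, which drive the enzymes of fatty acid and cholesterol synthesis. Rosiglitazone activates PPAR-gamma, the receptor that directs fat storage in adipocytes, and in the fatty liver of mice it can switch on storage genes of the adipocyte type. In these whole-liver samples a lower level of an RNA can come from fewer cells of a type or from less RNA per cell, and the values cannot tell these apart.

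Leaving out control spots, 55.0% to 62.5% of 43020 spots exceeded the background clearly in Cy5, except on cHF replicate 4 (80.8%). The precision of each value is limited by how many arrays there are. Across 39429 probes the median correlation of log2 ratios was 0.313 over the 28 pairs of cHF+PC+R livers, with single pairs down to 0.04. Over all 91 pairs of cHF+PC+R and cHF+R livers it was 0.226, with single pairs down to -0.19. Pairs within cHF+R were not summarised apart from pairs across the groups. A pair of livers stood apart from their groups: the profile of cHF+PC+R replicate 6 had r = 0.324 with the mean of the other cHF+PC+R livers and 0.496 with that of the cHF+R livers, and cHF+R replicate 6 had r = 0.209 with the other cHF+R livers and 0.365 with the cHF+PC+R mean, over all tested genes. The other 12 livers correlated more closely with their own group. Both replicates 6 still lay on their own group's side for Krt23 and Cyp7a1. On cHF+R replicate 5 the log2 ratios had a narrow spread after loess normalization (median absolute deviation 0.0636, against 0.138 to 0.172 in cHF+PC+R and 0.15 to 0.18 in the other cHF+R livers). Narrow spreads also occurred on cHF+PC replicates 1, 3, 6 and 8 (0.0349 to 0.0977) and cHF replicate 7 (0.08), which enter the same fit. With median centring in place of loess, cHF+R replicate 5 had the widest spread of all arrays (0.924, against 0.387 to 0.466 in the other cHF+R livers). Without cHF+R replicate 5 the overall count was 1002 (495 higher, 507 lower).

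Of 19458 genes tested, 1389 (7.14%) differed between cHF+PC+R and cHF+R livers at an adjusted p under 0.05, the threshold used throughout (limma, Benjamini-Hochberg over all genes), and "rose" and "fell" are used of these only. Of all genes tested, 645 (3.31%) were higher and 744 (3.82%) lower in cHF+PC+R, and 69 and 130 of them by at least 1.5-fold. Every list count below stands against these shares of 3.31% and 3.82%. For 313 genes (1.61%) the values of the 14 livers did not overlap between the groups. The median change of all genes was -0.01. On the 6 slides that carried a liver of each group, 853 of the 1288 called genes with a value everywhere differed the same way on every slide. These genes were called on the same arrays, so that agreement is no independent support. The count was 2373 (1005 higher and 1368 lower) without both replicates 6, with 1279 of the 1389 still called. It was 1976 without cHF+R replicate 6 alone and 761 without cHF+R replicate 1. Since the replicates 6 were picked for lying nearer the other group, the larger count without them is no independent support. Only 53 genes (7 higher, 46 lower) were called when arrays were median-centred in place of loess, and 74 (21 higher, 53 lower) when the loess ratios were also scaled between arrays. Most single calls below are lost under those 2 settings, which kept 16 and 5 of the 114 called genes that the naming rule picked. With slide as a block 1678 genes were called, and the deposited value table gave 1440 (845 higher, 595 lower).

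**Figure D1:**
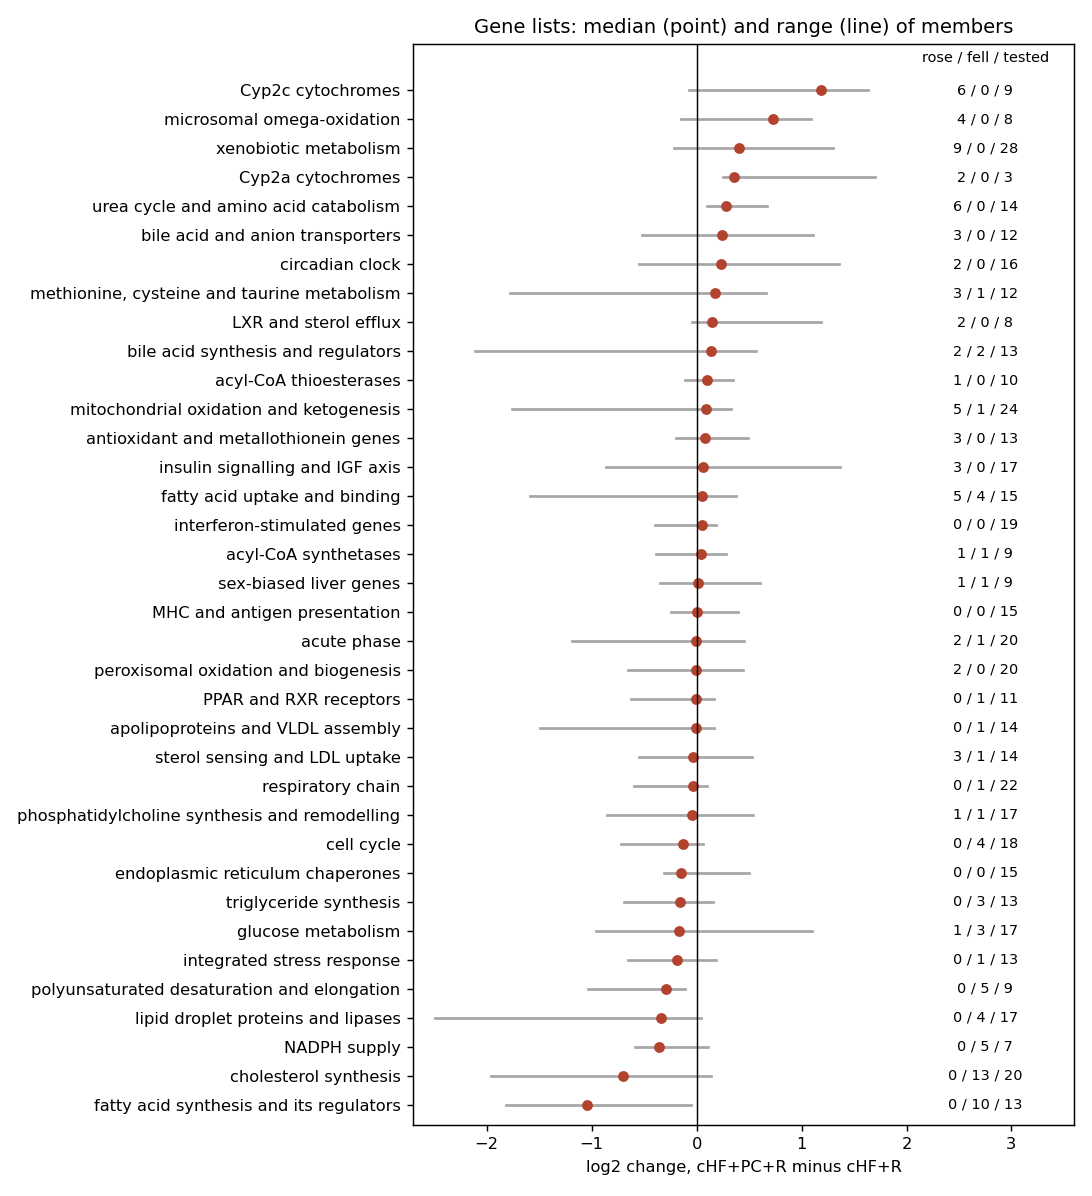
Change of the pathway lists in cHF+PC+R against cHF+R livers. Each point is the median log2 change over the list's tested genes and each line runs from its lowest to its highest gene, with the numbers that rose, fell and were tested at the right. Fatty acid and cholesterol synthesis stand lowest (medians -1.04 and -0.70) and the Cyp2c cytochromes highest (1.19).

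Cholesterol synthesis was lower along most of the pathway. Of 20 enzymes tested 13 fell and 0 rose, with a median log2 change of -0.70, against -0.01 over all genes and 3.82% of all genes called lower. As a list level, taken in each liver as the median over enzymes after each was centred between the groups, the cHF+PC+R livers ran from -0.81 to 0.18 (median -0.44) and the cHF+R livers from 0.21 to 0.56 (median 0.33). The groups did not overlap, and the median was lower on 6 of 6 shared slides, by 0.106 to 1.19. It was -0.77 with 15 enzymes lower without both replicates 6 and -0.65 with 10 lower without cHF+R replicate 5, and it stayed between -0.85 and -0.65 over 29 settings.

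Sqle, squalene epoxidase, the first oxygen-requiring step, had log2 ratios from -3.09 to 0.03 (median -1.91) in cHF+PC+R livers and from -0.12 to 0.81 (median 0.33) in cHF+R livers. It was 3.88-fold lower, a change of -1.96 ± 0.444 (SE; adjusted p = 0.00666). Only the highest cHF+PC+R liver reached into the cHF+R range. Fdps, farnesyl diphosphate synthase, lay between -1.54 and -0.29 (median -1.04) with phospholipids and between 0.04 and 0.71 (median 0.44) without them, and fell 2.67-fold (-1.42 ± 0.22, adjusted p = 0.000157). Pmvk, phosphomevalonate kinase, ran from -0.96 to 0.03 (median -0.46) in cHF+PC+R and from 0.14 to 0.82 (median 0.57) in cHF+R, and fell 2-fold (-1.003 ± 0.161, adjusted p = 0.000213). For neither Fdps nor Pmvk did the groups overlap. The reductase Dhcr7, which makes cholesterol in the last step of one branch, lay between -1.19 and -0.15 in cHF+PC+R and between 0.11 and 0.34 in cHF+R livers and fell by 0.81 ± 0.141 (adjusted p = 0.000566). Sc5d, lathosterol oxidase, measured in 7 cHF+PC+R and 6 cHF+R livers, fell by 0.63 ± 0.114 (adjusted p = 0.000945). Between these steps Idi1 (isopentenyl diphosphate isomerase), Mvd (the decarboxylase before it) and Nsdhl fell by 1.41, 1.03 and 0.96, Msmo1 and Cyp51, which demethylate lanosterol, fell by 0.96 and 0.82, Lss (lanosterol synthase) fell by 0.74, Fdft1 (squalene synthase) fell by 0.66 and Ebp fell by 0.28.

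Among the enzymes that were not called were Mvk, with a change of -0.54 (adjusted p = 0.0771), Hsd17b7 (-0.47, 0.0794), Tm7sf2 (-0.42, 0.103), Ggps1 (-0.02, 0.891) and Acat2, at 0.14 (0.126). Hmgcs1 did not pass the filter on dim probes.

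Promoter entries of Dhcr7 and Sc5d, among the called enzymes with the smallest adjusted p, are shown because the list moved together. RefSeq entries (250 bases before to 50 after the start, GRCm38.p6) were matched for 10 of the 13 called enzymes, in 13 entries, and not for Fdps, the first by the rule. The sterol response element searched (TCACNCCAC, both strands) was in 0 of these entries, against 1.24% of all 32851 promoter entries. At so low a share, 0 of 13 entries cannot show a lack of that element. The CCAAT box (CCAAT, either strand), a search added after the first, was in 10 of the 13 entries (76.9%) and in at least 1 entry of each of the 10 enzymes, against 37.4% of all entries. A match of so short a motif describes the letters only. Pmvk, whose entry 1 also held a CCAAT box, is not shown. Entries 1 and 2 of Dhcr7, which held no CCAAT box, are not shown either. Capitals mark CCAAT, or ATTGG where it lies on the other strand, in the entry of Dhcr7 at chr7:143829964-143830263 (plus strand), 85 to 81 and 49 to 45 bases before the start, and of Sc5d at chr9:42264251-42264550 (minus strand), 24 to 20 bases before it.
Dhcr7: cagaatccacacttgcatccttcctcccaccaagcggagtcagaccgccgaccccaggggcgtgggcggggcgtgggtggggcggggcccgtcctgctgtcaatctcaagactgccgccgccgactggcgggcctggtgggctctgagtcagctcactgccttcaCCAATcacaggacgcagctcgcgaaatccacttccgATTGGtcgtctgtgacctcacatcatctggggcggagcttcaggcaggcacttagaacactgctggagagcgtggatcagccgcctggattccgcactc
Sc5d: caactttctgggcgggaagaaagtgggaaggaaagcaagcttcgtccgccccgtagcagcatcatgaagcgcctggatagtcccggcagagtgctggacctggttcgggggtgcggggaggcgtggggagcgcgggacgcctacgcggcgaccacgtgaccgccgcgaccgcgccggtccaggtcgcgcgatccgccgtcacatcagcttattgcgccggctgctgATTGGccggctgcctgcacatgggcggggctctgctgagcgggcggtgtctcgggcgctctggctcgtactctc

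Of 14 genes of sterol sensing and LDL uptake 3 rose and 1 fell, against 3.31% and 3.82% of all genes, with a median of -0.03. The counts were 2 and 0 without cHF+PC+R replicate 1, 4, 5 or 8, and likewise with cHF+R replicate 1, 3, 4 or 6 left out. Srebf2, which encodes SREBP-2, had log2 ratios from -0.36 to 0.07 in cHF+PC+R and from -0.05 to 0.13 in cHF+R livers and a change of -0.17 ± 0.085 (adjusted p = 0.236). Scarb1, the HDL receptor, rose in all livers without overlap, with values from -0.06 to 0.41 in cHF+PC+R and from -0.57 to -0.15 in cHF+R (0.53 ± 0.074, adjusted p = 3.71e-05), and the lysosomal cholesterol exporter Npc1 rose by 0.35 ± 0.081 (adjusted p = 0.00707).

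The exporters of sterols into bile were higher and the enzymes that start bile acid synthesis lower. Abcg5 and Abcg8 encode the subunits of the transporter that moves cholesterol from hepatocytes into bile. Abcg5 lay between -0.20 and 1.01 (median 0.26) in cHF+PC+R livers and between -1.21 and -0.73 (median -0.89) in cHF+R livers, a rise of 2.28-fold (1.19 ± 0.145, adjusted p = 4.87e-06). Abcg8 lay between 0.01 and 1.04 (median 0.44) and between -0.92 and -0.43 (median -0.65) in the same groups and rose 2.08-fold (1.06 ± 0.123, adjusted p = 2.65e-06). Neither gene's groups overlapped, which by itself makes both higher on 6 of 6 slides. The other 6 tested genes of the LXR list, which holds this receptor and its efflux targets, were not called, with Abca1 at 0.10 and Nr1h3, the receptor LXR-alpha, at -0.04.

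Cyp7a1, which catalyses the first and limiting step from cholesterol to bile acids, fell 4.31-fold. Its log2 ratios ran from -2.11 to 0.10 (median -1.20) in cHF+PC+R livers and from 0.712 to 1.501 (median 0.81) in cHF+R livers, without overlap (-2.11 ± 0.31, adjusted p = 8.2e-05). Cyp8b1, the hydroxylase that directs synthesis to cholic acid, ran from -3.17 to -0.19 (median -1.01) and from -0.34 to 0.76 (median 0.45) in these groups and fell 3.15-fold (-1.66 ± 0.369, adjusted p = 0.00572), with only the highest cHF+PC+R liver above the lowest cHF+R liver. Cyp7a1 was also called under every one of the 29 settings, including median centring and scaling, as were Fam183b and Slco1a4. The probe of Cyp7a1 lies at chr4:6193456-6193515 (minus strand, mm9) and is shown because Cyp7a1 had the second-largest called fall of all genes.
Cyp7a1: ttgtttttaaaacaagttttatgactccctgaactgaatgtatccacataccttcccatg

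Akr1d1, a reductase further down the bile acid pathway, rose by 0.57 ± 0.117 (adjusted p = 0.003). The list of 13 bile acid genes as a whole had 2 that rose and 2 that fell and a median of 0.14 (-0.08 where arrays were median-centred). The receptors Nr1h4 (FXR) and Nr0b2 (SHP), which shut off Cyp7a1 in the bile acid feedback, had changes of -0.13 (adjusted p = 0.502) and 0.32 (0.136). Of 12 transporters of bile acids and organic anions 3 rose, with a median of 0.25. Slco1a4, an uptake carrier, lay between 0.17 and 1.01 in cHF+PC+R and between -1.26 and -0.32 in cHF+R livers and rose 2.15-fold (1.11 ± 0.153, adjusted p = 3.3e-05). Abcc3, an export pump of the sinusoidal side, rose by 0.59 ± 0.113 (adjusted p = 0.00164).

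**Figure D2:**
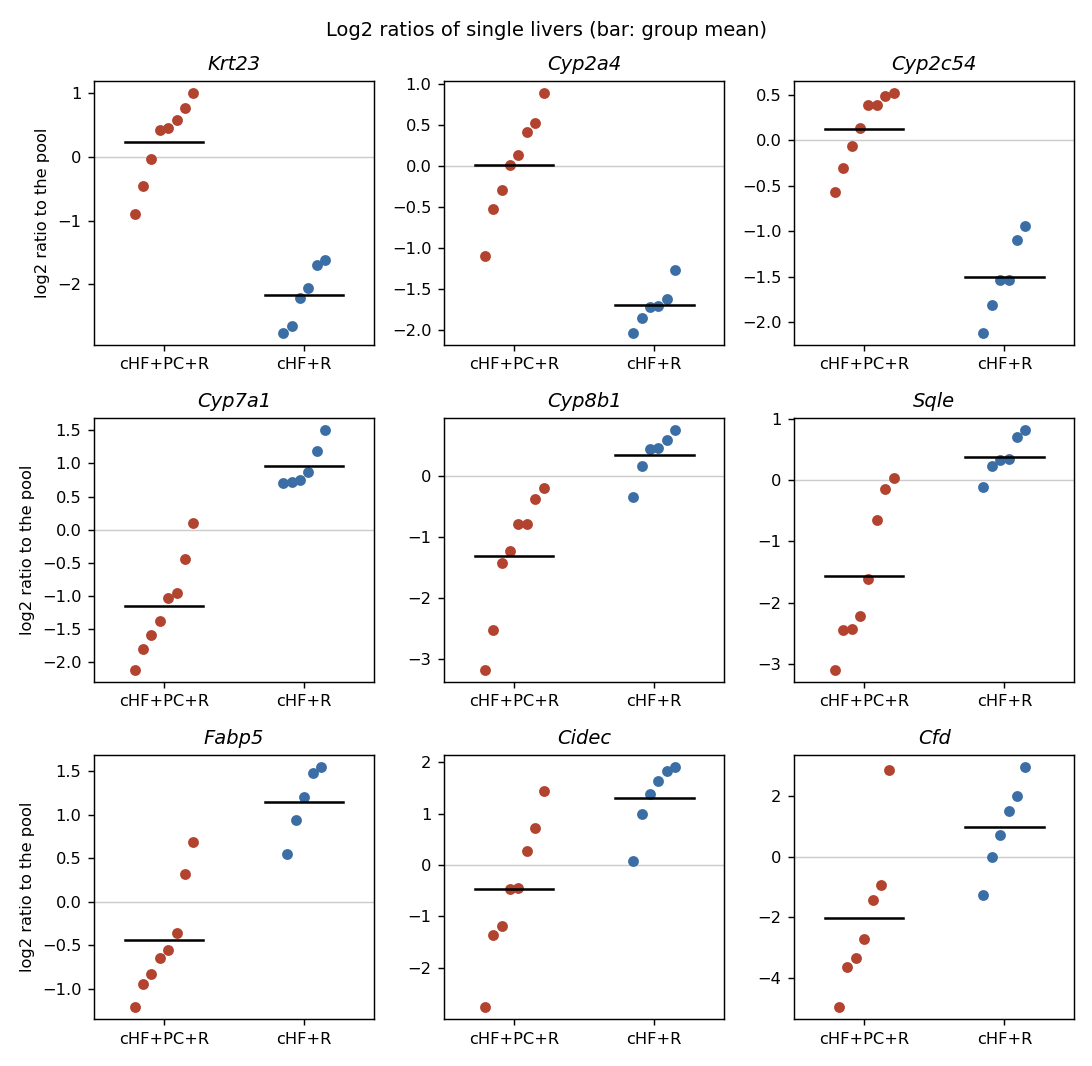
Log2 ratios to the common pool of 9 genes in single livers, cHF+PC+R (8 livers, red, left) and cHF+R (6 livers, blue, right), with the group mean as a bar and points ordered by value. Krt23, Cyp2a4, Cyp2c54 and Cyp7a1 do not overlap between the groups, and 1 cHF+PC+R liver, replicate 6, has a Cfd value of 2.84.

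Fatty acid synthesis had the lowest median of the pathway lists. Of 13 genes tested 10 fell and 0 rose, against 3.82% and 3.31% of all genes, with a median of -1.04. The list level ran from -1.05 to 0.02 (median -0.50) in cHF+PC+R livers and from -0.31 to 1.46 (median 0.48) in cHF+R livers. The groups overlapped, and the median was lower on 5 of 6 slides. It was -1.21 with 11 genes lower without both replicates 6 and -1.08 with 7 lower without cHF+R replicate 5. Over 29 settings it lay between -1.33 and -0.80.

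Acly, ATP citrate lyase, which supplies cytosolic acetyl-CoA, lay between -1.09 and 0.02 (median -0.72) in 7 cHF+PC+R livers and between 0.08 and 1.39 (median 0.42) in 6 cHF+R livers, without overlap, and fell 2.27-fold (-1.19 ± 0.175, adjusted p = 0.000114). Its second probe had a change of -0.34. Fasn, the fatty acid synthase, ran from -1.53 to -0.36 (median -0.64) with phospholipids and from -0.76 to 1.76 (median 0.83) without, and fell 2.85-fold (-1.51 ± 0.283, adjusted p = 0.00119). Me1, the malic enzyme that supplies NADPH to the synthase, ran from -1.27 to 0.35 (median -0.85) in cHF+PC+R and from -0.46 to 1.94 (median 1.07) in cHF+R and fell 3.27-fold (-1.71 ± 0.293, adjusted p = 0.000462). Acacb, an acetyl-CoA carboxylase whose product also restrains fatty acid oxidation, ran from -1.599 to -0.09 (median -0.81) and from -0.68 to 1.44 (median 0.94) in these groups and fell 3-fold (-1.58 ± 0.26, adjusted p = 0.000289). For Fasn, Me1 and Acacb cHF+R replicate 6 lay within the range of the cHF+PC+R livers, and the other 5 cHF+R livers lay above all of them.

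Thrsp, a lipogenic nuclear protein, fell 3.53-fold (-1.82 ± 0.502, adjusted p = 0.0252), with values from -2.79 to 0.39 in cHF+PC+R and from -1.68 to 2.02 in cHF+R livers. With cHF+PC+R replicate 4 left out it missed the threshold (adjusted p = 0.0573), as it did with cHF+R replicate 1 (0.0902), 3 (0.0625) or 5 (0.0565). Pnpla3, Acss2 (a cytosolic acetyl-CoA synthetase), Elovl6, which elongates palmitate, Acaca and the citrate carrier Slc25a1 fell by 1.04, 0.95, 0.85, 0.74 and 0.30. The desaturase Scd1 ran from -1.81 to 1.15 (median -0.45) in cHF+PC+R and from -0.29 to 2.38 (median 0.84) in cHF+R, and its change of -1.34 ± 0.468 did not pass (adjusted p = 0.0773). Srebf1, which encodes SREBP-1, had medians of 0.03 in cHF+PC+R and 0.003 in cHF+R livers and a change of -0.05 ± 0.162 (adjusted p = 0.889).

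Of 7 NADPH-supplying enzymes 5 fell and 0 rose, against 3.82% and 3.31% of all genes. The list median was -0.36, and 3 fell when cHF+R replicate 1, 3 or 5 or cHF+PC+R replicate 7 was left out. Taldo1 and Pgd, of the pentose phosphate pathway, fell by 0.58 ± 0.12 (adjusted p = 0.00399) and 0.59 ± 0.128 (adjusted p = 0.00486), and G6pdx, its entry enzyme, fell by 0.36 ± 0.083 (adjusted p = 0.00831). For G6pdx the livers ran from -0.27 to 0.24 in cHF+PC+R and from 0.08 to 0.53 in cHF+R. Idh1 fell by 0.22 and Tkt fell by 0.49. Tkt was not called with cHF+PC+R replicate 1 (adjusted p = 0.0537), 4 (0.0601), 5 (0.0509) or 7 (0.056) left out, nor with cHF+R replicate 1 (0.105), 3 (0.0745) or 5 (0.0623) left out.

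Desaturation and elongation of polyunsaturated fatty acids were lower in 5 of 9 tested genes, against 3.82% of all genes, with 0 higher. The list median was -0.30, lower on 6 of 6 slides. Elovl5, which elongates the precursors of the long omega-3 and omega-6 acids, ran from -1.07 to 0.13 (median -0.50) in 7 cHF+PC+R livers and from 0.09 to 1.06 (median 0.74) in 5 cHF+R livers and fell 2.04-fold (-1.03 ± 0.188, adjusted p = 0.00135), with the groups just touching. Hsd17b12 and Tecr, further enzymes of the elongation cycle, fell by 0.63 ± 0.143 (adjusted p = 0.00674) and 0.29 ± 0.074 (adjusted p = 0.0145). Elovl1 fell by 0.30 ± 0.068 (adjusted p = 0.00693), and the delta-5 desaturase Fads1 fell by 0.37. The delta-6 desaturase Fads2 was not called (-0.23, adjusted p = 0.381).

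**Figure D3:**
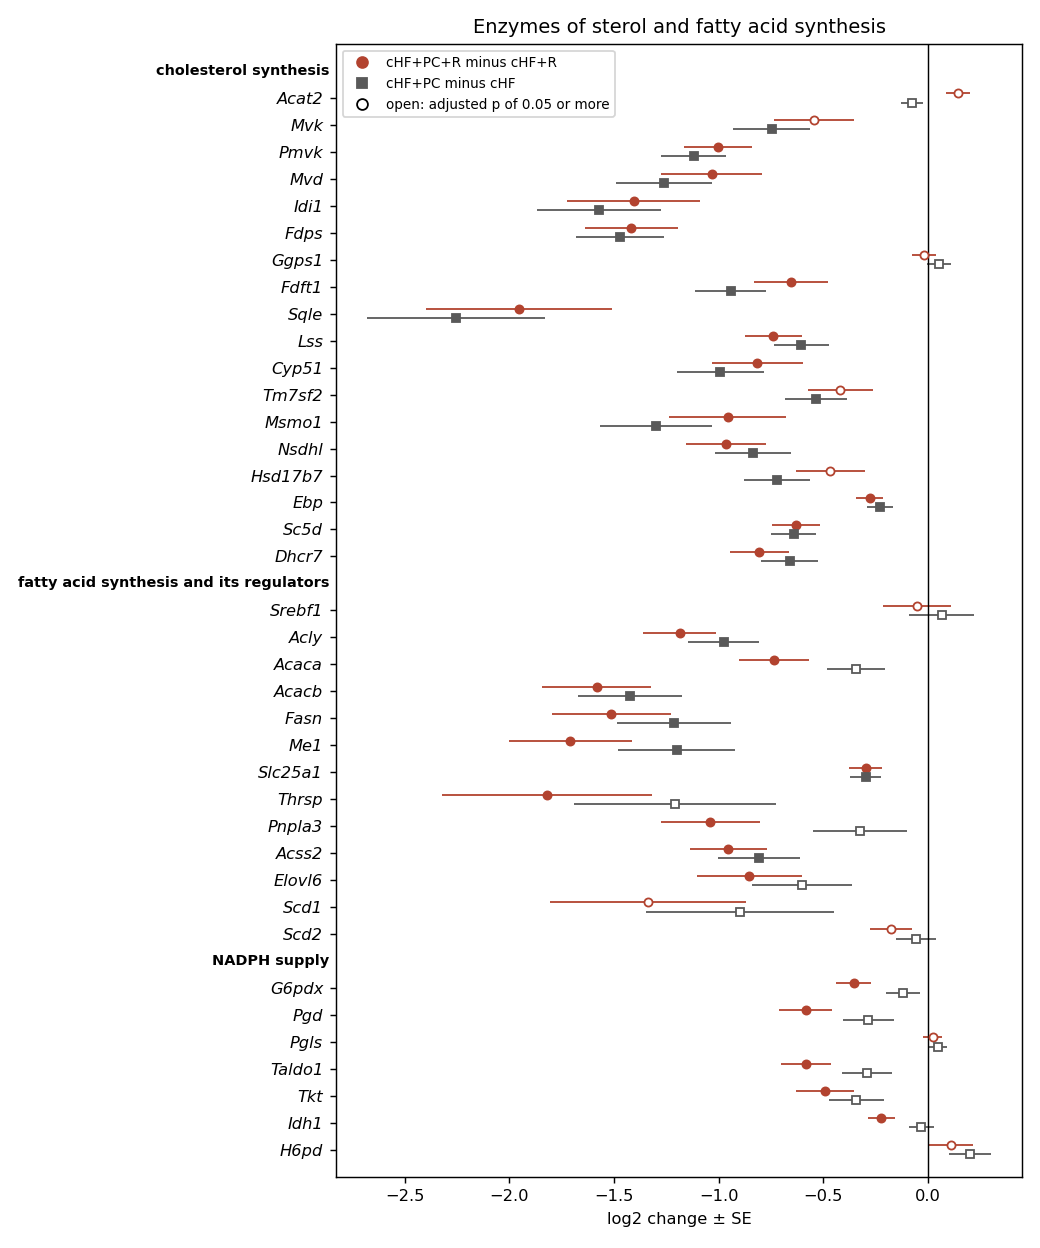
Log2 change with its standard error of tested enzymes of cholesterol synthesis, fatty acid synthesis and NADPH supply, for cHF+PC+R minus cHF+R (red circles) and cHF+PC minus cHF (grey squares). Open symbols did not pass an adjusted p of 0.05. All filled symbols lie left of 0, and Mvk, Tm7sf2 and Hsd17b7 are filled only for the difference without rosiglitazone.

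Of 17 lipid droplet proteins and lipases 4 fell and 0 rose, against 3.82% and 3.31% of all genes, with a median of -0.34. The count depended on single livers: 1 gene fell without cHF+R replicate 1, 2 without cHF+PC+R replicate 5 or 7 or cHF+R replicate 2, 3 or 5, 7 without cHF+PC+R replicate 6, 8 without cHF+R replicate 6 and 9 without both replicates 6. The median was negative in each of these fits. Cidec, which fuses lipid droplets, ran from -2.76 to 1.44 (median -0.45) in cHF+PC+R and from 0.08 to 1.90 (median 1.501) in cHF+R livers and fell 3.43-fold (-1.78 ± 0.476, adjusted p = 0.0206). The groups overlapped, and the call was lost without cHF+R replicate 1 (adjusted p = 0.0599). Hilpda, an inhibitor of the main triglyceride lipase, lay between -0.52 and 0.11 in cHF+PC+R and between -0.01 and 0.49 in cHF+R and fell by 0.47 ± 0.102 (adjusted p = 0.00424). The droplet genes Cidea, Plin4 and G0s2 had changes of -2.49 (adjusted p = 0.0957), -1.11 (0.0647) and -0.79 (0.0893), and Plin2, the chief droplet coat protein of hepatocytes, one of -0.26 (0.412).

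Triglyceride synthesis had 3 of 13 genes lower and 0 higher (median -0.15), against 3.82% and 3.31% of all genes. Gpam, which adds the first acyl chain to glycerol phosphate, ran from -0.63 to 0.17 in cHF+PC+R and from -0.26 to 0.99 in cHF+R and fell by 0.69 ± 0.16 (adjusted p = 0.00759). Mogat2, a monoacylglycerol acyltransferase, fell by 0.46 ± 0.118 (adjusted p = 0.0162). Agpat2 fell by 0.58 ± 0.156 (adjusted p = 0.0206), but did not pass with cHF+R replicate 1 (0.0724), 3 (0.0545) or 5 (0.0519) left out. Lpin1, a phosphatidate phosphatase and coactivator, fell by 0.63 ± 0.154 (adjusted p = 0.0125), and Dgat2, which closes the triglyceride, was not called (-0.36, adjusted p = 0.0724).

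Among the 15 genes of fatty acid uptake and binding 5 rose and 4 fell, against 3.31% and 3.82% of all genes. Without cHF+R replicate 1 these counts were 2 and 2, without cHF+R replicate 3 they were 3 and 2, and without cHF+PC+R replicate 1, 5 or 7 or cHF+R replicate 5 they were 2 and 3. The largest falls were in binding proteins. Fabp5, a fatty acid binding protein of skin, fat and macrophages, ran from -1.21 to 0.69 (median -0.60) in 8 cHF+PC+R livers and from 0.55 to 1.55 (median 1.21) in 5 cHF+R livers and fell 3.01-fold (-1.59 ± 0.255, adjusted p = 0.000247). Its probe and that of Gm6100 are shown, chosen after their values were seen, because a run of 50 bases, in capitals, is the same in both, so the signals of these genes cannot be told apart. The probes lie at chr3:10016185-10016244 (plus strand) and chr8:35370217-35370276 (minus strand) in mm9.
Fabp5: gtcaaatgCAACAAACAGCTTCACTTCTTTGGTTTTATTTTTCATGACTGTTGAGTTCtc
Gm6100: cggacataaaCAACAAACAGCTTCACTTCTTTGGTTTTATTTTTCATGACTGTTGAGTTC

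Gm6100 ran from -1.10 to 0.66 in cHF+PC+R and from 0.51 to 1.87 in cHF+R and fell 3.12-fold (-1.64 ± 0.242, adjusted p = 8.71e-05), and Fabp5l2, a further gene of the Fabp5 kind, fell 3.51-fold (-1.81 ± 0.261, adjusted p = 5.92e-05). In all 3 only cHF+PC+R replicate 6 reached into the cHF+R range. Fabp4, the binding protein of adipocytes, fell by 1.15 (adjusted p = 0.0175), and Dbi, which carries acyl-CoA, fell by 0.53 ± 0.111 (adjusted p = 0.00343). Cd36, a fatty acid translocase, fell by 0.78 ± 0.234 (adjusted p = 0.0398), with livers from -0.79 to 0.97 in cHF+PC+R and from 0.26 to 1.28 in cHF+R. Leaving out cHF+PC+R replicate 1 (0.0641), 2 (0.0773), 4 (0.0594), 5 (0.0693) or 7 (0.0682) ended that call, and so did leaving out cHF+R replicate 1 (0.114), 2 (0.0542), 3 (0.0901) or 5 (0.0811). The rises were smaller and lay in the transport proteins Slc27a1 (0.28 ± 0.058, adjusted p = 0.00296), Slc27a2 (0.38), Slc27a4 (0.14) and Slc27a5 (0.29) and in hepatic lipase, Lipc (0.26 ± 0.055, adjusted p = 0.00332). Lpl, lipoprotein lipase and a PPAR-gamma target, had medians of 0.73 in cHF+PC+R and 0.54 in cHF+R livers and a change of 0.06 ± 0.21 (adjusted p = 0.911).

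The largest fitted change of all called genes was in Cfd, adipsin, a complement protease made mostly by adipocytes. Its log2 ratios in 7 cHF+PC+R livers ran from -4.96 to 2.84 (median -2.72), against -1.26 to 2.95 (median 1.11) in 6 cHF+R livers. It was 8.04-fold lower (-3.01 ± 0.835, adjusted p = 0.0266). Replicate 6 alone held the 2.84, and the other 6 cHF+PC+R livers lay below the second-lowest cHF+R liver. Without both replicates 6, which were picked for lying nearer the other group, the change was -4.27 ± 0.64 (adjusted p = 8.14e-05). Leaving out cHF+PC+R replicate 2 (adjusted p = 0.0599), 5 (0.0577) or 7 (0.0553) ended the call, and so did leaving out cHF+R replicate 1 (0.0863), 3 (0.0575) or 5 (0.0557). With every liver kept, the Cfd call was also lost with an intensity trend in limma (adjusted p = 0.648) and with only both compared groups in the fit (0.115). Of the other 7 adipocyte markers Adipoq, Lep, Plin1 and Ucp1 did not pass the filter on dim probes, and Retn, Slc2a4 and Adrb3 had changes of -0.31, -0.10 and 0.12 with 0 called. The list level of the 4 tested markers ran from -0.69 to 0.45 in cHF+PC+R and from -0.25 to 0.67 in cHF+R livers. The part of adipocytes in these values was not tested.

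Otop1, a proton channel, was above background in all 6 cHF+R but only 3 of 8 cHF+PC+R livers, so the size of its change is uncertain. The fitted change was -2.06 ± 0.577 (adjusted p = 0.027), with values from -2.19 to 0.17 (median -1.85) in cHF+PC+R and from -1.62 to 3.30 (median 0.22) in cHF+R livers. The groups overlapped, and its other probe had a change of -0.40. Leaving out cHF+PC+R replicate 4 (adjusted p = 0.0519) ended the call, and so did leaving out cHF+R replicate 1 (0.107), 3 (0.0825) or 5 (0.0574). Fam183b ran from -1.43 to 0.96 (median -0.71) in cHF+PC+R and from 0.45 to 2.23 (median 1.16) in cHF+R and fell 3.62-fold (-1.86 ± 0.327, adjusted p = 0.00061). The probes of Cfd and Otop1 lie at chr10:79355302-79355361 and chr5:38695380-38695439, both on the plus strand of mm9.
Cfd: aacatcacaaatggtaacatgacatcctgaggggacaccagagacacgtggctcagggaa
Otop1: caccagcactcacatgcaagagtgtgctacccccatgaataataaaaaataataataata

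Among the routes of fatty acid oxidation, the microsomal omega-hydroxylases held the largest called rises. Of 8 such cytochromes 4 rose and 0 fell, against 3.31% and 3.82% of all genes. The list median was 0.73, higher on 6 of 6 slides and between 0.62 and 0.81 over 29 settings. The list level ran from 0.004 to 0.69 in cHF+PC+R and from -0.51 to -0.22 in cHF+R livers, without overlap. Cyp4a10, the classic PPAR-alpha target, lay between -0.06 and 1.46 (median 0.50) in cHF+PC+R and between -0.68 and -0.26 (median -0.50) in cHF+R and rose 2.02-fold (1.01 ± 0.158, adjusted p = 0.000157). Its relatives Cyp4a31 and Cyp4a32 rose 1.98-fold (0.99 ± 0.135, adjusted p = 3.03e-05) and 1.78-fold (0.84 ± 0.132, adjusted p = 0.000208). Cyp4f15 lay between -0.16 and 0.35 in cHF+PC+R and within -0.50 to -0.41 in cHF+R and rose 1.44-fold (0.53 ± 0.064, adjusted p = 4.33e-06). None of these 4 overlapped between the groups. Cyp4a14, with values in only 4 cHF+R livers, had a change of 1.09 ± 0.422 (adjusted p = 0.123). The PPAR element searched (a pair of AGGNCA sites 1 base apart, both strands) was in 0 of 4 promoter entries of called oxidation genes, against 0.381% of all entries. At so low a share, 0 of 4 entries cannot show a lack of this element.

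Of 20 peroxisomal genes 2 rose and 0 fell, against 3.31% and 3.82% of all genes, with a median of -0.01. The count of rises was 1 of 20 without cHF+R replicate 2 or 4, and 2 rose and 2 fell without cHF+R replicate 6. Pecr, an enoyl-CoA reductase, rose by 0.32 ± 0.066 (adjusted p = 0.00337) in 7 cHF+PC+R against 5 cHF+R livers. Ehhadh, the bifunctional enzyme of peroxisomal oxidation, lay between 0.34 and 0.69 in cHF+PC+R and between -0.27 and 0.52 in cHF+R and rose by 0.44 ± 0.119 (adjusted p = 0.0206). With cHF+R replicate 2 or 4 left out it did not pass (0.0635 and 0.0573). Of 10 acyl-CoA thioesterases only Acot12 was called (0.35 ± 0.069, adjusted p = 0.00221).

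In mitochondria 5 of 24 genes of oxidation and ketogenesis rose and 1 fell, against 3.31% and 3.82% of all genes. The list median was 0.09 (-0.10 where arrays were median-centred). Acadl, the long-chain acyl-CoA dehydrogenase, lay between 0.12 and 0.33 in cHF+PC+R and between -0.17 and 0.11 in cHF+R and rose by 0.24 ± 0.053 (adjusted p = 0.00537). Etfb, an electron carrier, rose by 0.17 ± 0.042 (adjusted p = 0.0163), with a sign that turned under median centring (-0.11), and Eci2 and Acadvl rose by 0.31 and 0.21. Cpt1a, the gate of mitochondrial fatty acid entry, ran from -0.10 to 0.37 in cHF+PC+R and from -0.45 to 0.11 in cHF+R and rose by 0.32 ± 0.086 (adjusted p = 0.0195), but not with cHF+R replicate 1 left out (0.0787). Pdk4, a fasting-induced kinase that spares glucose, ran from -1.03 to 0.80 (median -0.45) and from -0.16 to 1.28 (median 0.83) in these groups and fell 2.12-fold (-1.09 ± 0.274, adjusted p = 0.0141). The fasting hormone Fgf21 had a change of -1.76 (adjusted p = 0.056). The receptors behind these targets were not called: Ppara had a change of 0.16 ± 0.123 (adjusted p = 0.468), and Pparg, from -0.99 to 0.14 in cHF+PC+R and from -0.42 to 0.59 in cHF+R livers, one of -0.45 ± 0.19 (adjusted p = 0.151).

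Cytochromes P450 of drug and steroid metabolism made up most of the largest rises. Of the 12 largest called rises 8 were cytochromes of the Cyp2a, Cyp2c and Cyp3a families, counting the pseudogene Cyp2a21-ps, the others being Krt23, Igfbp2, Hsd17b6 and Gsta2. Of 9 tested Cyp2c genes 6 rose and 0 fell, against 3.31% of all genes called higher, with a median of 1.19 that lay between 1.04 and 1.44 over 29 settings. Cyp2c54 lay between -0.57 and 0.52 (median 0.26) in cHF+PC+R and between -2.12 and -0.94 (median -1.54) in cHF+R and rose 3.09-fold (1.63 ± 0.194, adjusted p = 3.52e-06). Cyp2c50 and Cyp2c37 rose 2.58-fold and 2.55-fold (1.37 ± 0.158, adjusted p = 2.65e-06, and 1.35 ± 0.153, adjusted p = 2.04e-06), and Cyp2c39 rose 2.28-fold (1.19 ± 0.149, adjusted p = 8.12e-06). None of the 4 overlapped between the groups. Cyp2c38 rose 2.9-fold at its brighter probe (1.54 ± 0.207, adjusted p = 2.75e-05), while its other probe had a change of -0.002. Cyp2c29 rose by 1.09 (adjusted p = 0.000158). Probes of such close family members can bind each other's RNA. Cyp2c67, Cyp2c55 and Cyp2c70 were not called (-0.07, 0.40 and 0.61).

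Cyp2a4, a steroid 15-alpha-hydroxylase, lay between -1.10 and 0.89 (median 0.07) in cHF+PC+R and between -2.03 and -1.26 (median -1.71) in cHF+R and rose 3.25-fold (1.70 ± 0.315, adjusted p = 0.00105), with its other probe at 1.47. The probe that carries the name Cyp2a21-ps rose 3.46-fold (1.79 ± 0.318, adjusted p = 0.000678). For both the groups did not overlap. These probes are shown because 31 bases, in capitals, are the same in both, so that they may read the same RNA. They lie at chr7:27737339-27737398 and chr7:27099880-27099939, both on the plus strand of mm9.
Cyp2a21-ps: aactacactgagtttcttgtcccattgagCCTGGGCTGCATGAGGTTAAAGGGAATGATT
Cyp2a4: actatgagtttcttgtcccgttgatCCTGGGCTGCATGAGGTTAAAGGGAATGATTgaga

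In xenobiotic metabolism outside the Cyp2a and Cyp2c families 9 of 28 genes rose and 0 fell, against 3.31% and 3.82% of all genes. The list median was 0.41, higher on 6 of 6 slides, and 11 rose without both replicates 6. This list includes Cyp3a genes such as Cyp3a25 and Cyp3a13, so its rises are not separate from the Cyp3a family named above. Cyp3a11, a main drug-metabolising enzyme and target of the receptor PXR, lay between -0.07 and 1.39 (median 0.59) in cHF+PC+R and between -1.10 and -0.38 (median -0.70) in cHF+R and rose 2.47-fold (1.30 ± 0.142, adjusted p = 2.04e-06). Cyp3a25 lay between 0.11 and 0.75 (median 0.43) and between -1.02 and -0.26 (median -0.86) and rose 2.23-fold (1.16 ± 0.118, adjusted p = 1.2e-06), and Cyp3a16 rose 2.3-fold (1.20 ± 0.131, adjusted p = 1.95e-06). The groups did not overlap for these 3. The sulfotransferase Sult1d1 rose 1.81-fold (0.85 ± 0.144, adjusted p = 0.000387) and Cyp3a13 rose 1.34-fold (0.43 ± 0.085, adjusted p = 0.00205). The receptors PXR (Nr1i2) and CAR (Nr1i3) rose by 0.35 (adjusted p = 0.0269) and 0.63 (adjusted p = 0.00587). Cyp2b10, the usual CAR target, had a change of 0.92 (adjusted p = 0.184). Gsta2, a glutathione transferase, ran from -0.99 to 1.66 in cHF+PC+R and from -1.51 to -0.79 in cHF+R and rose 2.46-fold (1.30 ± 0.373, adjusted p = 0.0316), but it missed the threshold with cHF+PC+R replicate 2 (0.0624) or 3 (0.0628) or with cHF+R replicate 2 (0.067), 4 (0.0662) or 5 (0.0634) left out.

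**Figure D4:**
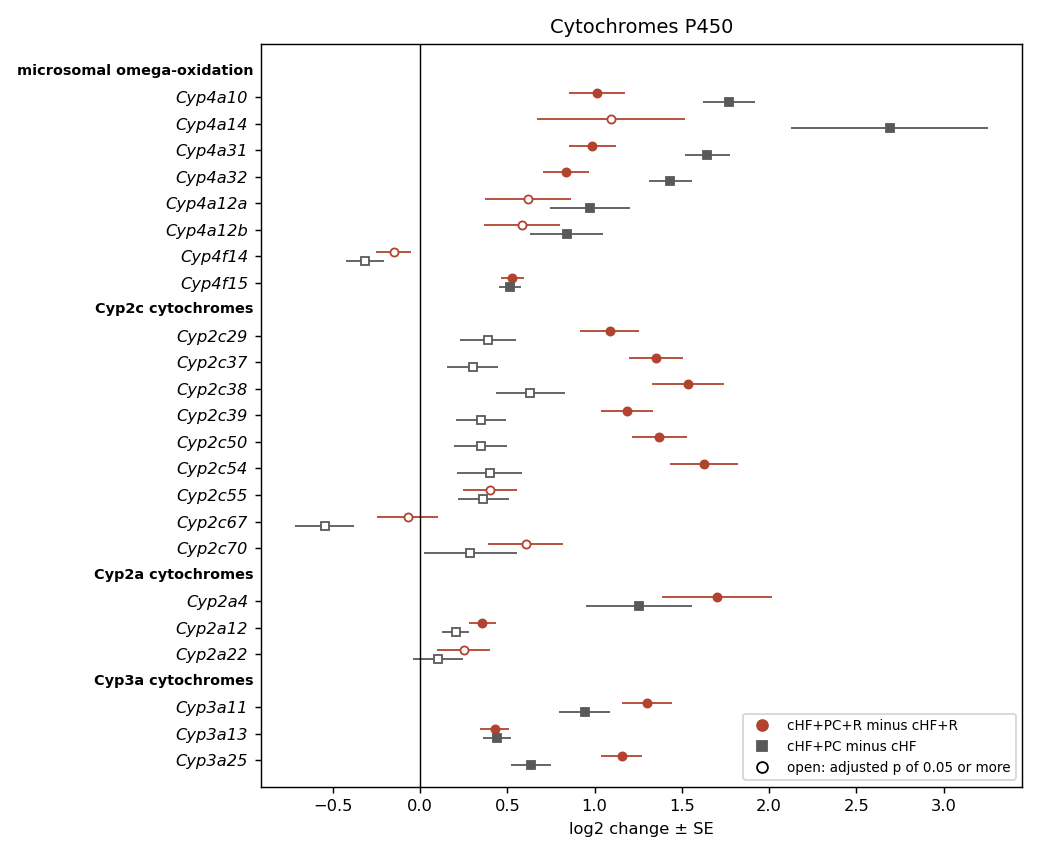
Log2 change with its standard error of cytochromes P450, for cHF+PC+R minus cHF+R (red circles) and cHF+PC minus cHF (grey squares), with open symbols for an adjusted p of 0.05 or more. The Cyp4a genes lie further right without rosiglitazone and the Cyp2c genes further right with it, as in Cyp4a10 (1.01 and 1.77) and Cyp2c54 (1.63 and 0.40).

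The gene with the largest rise was Krt23, a type I keratin. Its log2 ratios lay between -0.89 and 1.01 (median 0.44) in cHF+PC+R livers and between -2.76 and -1.62 (median -2.13) in cHF+R livers. It was 5.27-fold higher (2.40 ± 0.275, adjusted p = 2.49e-06), with a gap between the groups. Krt23 stands on the list of bile duct markers, of which the other 5 tested, Krt19, Sox9, Spp1, Cftr and Aqp1, had changes from -0.21 to 0.02 with 0 called, while Krt7 and Epcam did not pass the filter. Its probe lies at chr11:99339393-99339452 (minus strand, mm9).
Krt23: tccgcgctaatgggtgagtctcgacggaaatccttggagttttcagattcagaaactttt

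Igfbp2, an insulin-like growth factor binding protein secreted by hepatocytes, lay between -0.15 and 0.95 (median 0.52) in cHF+PC+R and between -1.13 and -0.37 (median -0.96) in cHF+R and rose 2.59-fold (1.37 ± 0.161, adjusted p = 3.04e-06), without overlap. It was 1 of 3 genes that rose among 17 of insulin signalling and the IGF axis, where 0 fell, and only 1 gene of that list rose without cHF+R replicate 5. Irs1, the insulin receptor substrate, rose by 0.35 ± 0.096 (adjusted p = 0.0226), and its other probe had a change of -0.02. Irs1 missed the threshold with cHF+R replicate 4 (0.0572) or 5 (0.0568) left out. Igfbp4 rose by 0.32 ± 0.088 (adjusted p = 0.0261), but not with cHF+R replicate 5 left out (0.0634). Hsd17b6, a steroid and retinoid dehydrogenase, ran from -0.01 to 0.99 (median 0.29) in cHF+PC+R and from -1.87 to 0.01 (median -0.99) in cHF+R and rose 2.57-fold (1.36 ± 0.206, adjusted p = 0.000115), with only the highest cHF+R liver touching the other group.

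Of 14 genes of the urea cycle and amino acid breakdown 6 rose and 0 fell, against 3.31% and 3.82% of all genes. All 14 had positive changes (0.10 to 0.67, median 0.28). The rises numbered 3 without cHF+R replicate 1 or 5 and 7 without both replicates 6. Oat, ornithine aminotransferase, ran from -0.04 to 0.57 in cHF+PC+R and from -0.69 to -0.03 in cHF+R and rose 1.59-fold (0.67 ± 0.125, adjusted p = 0.00105). Hpd, of tyrosine breakdown, rose by 0.54 ± 0.092 (adjusted p = 0.000445). Cps1, the entry enzyme of the urea cycle, rose by 0.56 ± 0.147 (adjusted p = 0.0191), but not with cHF+R replicate 1 (0.0711) or 5 (0.0517) left out. Hepatocyte markers had a median of 0.13, with 0 of 13 called, 5 of 13 at an unadjusted p under 0.05 and 4 of 13 higher without both replicates 6, and their part in these rises was not tested. Their list level ran from -0.06 to 0.17 in cHF+PC+R and from -0.26 to 0.19 in cHF+R livers, and their median was -0.14 where arrays were median-centred.

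In methionine, cysteine and taurine metabolism 3 of 12 genes rose and 1 fell. Cth, which makes cysteine from cystathionine, rose by 0.66 ± 0.109 (adjusted p = 0.000375), Mat1a, the S-adenosylmethionine synthetase of hepatocytes, rose by 0.59 ± 0.121 (adjusted p = 0.00302), and Ahcy rose by 0.31 ± 0.082 (adjusted p = 0.0182). Csad, the decarboxylase of taurine synthesis, ran from -1.16 to 0.26 (median -0.93) in 8 cHF+PC+R livers and from 0.69 to 1.56 (median 1.096) in the 4 cHF+R livers with a value and fell 3.44-fold (-1.78 ± 0.341, adjusted p = 0.00171), without overlap. Mat1a also did not overlap between the groups.

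Glucose metabolism had 3 of 17 genes lower and 1 higher, with a median of -0.17. Only 1 gene fell and 0 rose without cHF+PC+R replicate 1 or 7 or cHF+R replicate 1, 2 fell and 0 rose without cHF+PC+R replicate 4 or 5 or cHF+R replicate 5, and 1 fell and 1 rose without cHF+R replicate 3. Pklr, liver pyruvate kinase, ran from -1.04 to -0.57 (median -0.81) in cHF+PC+R and from -0.72 to 0.64 (median 0.18) in cHF+R and fell 1.95-fold (-0.96 ± 0.174, adjusted p = 0.000901). Apoa4, an apolipoprotein of triglyceride-rich particles, was the only called gene among 14 of lipoprotein assembly. It ran from -1.58 to -0.82 (median -1.41) in cHF+PC+R and from -0.92 to 0.98 (median 0.22) in cHF+R and fell 2.81-fold (-1.49 ± 0.197, adjusted p = 1.84e-05), with only cHF+R replicate 6 inside the other group's range. Of 17 genes of phosphatidylcholine synthesis and remodelling 1 rose and 1 fell (0 and 1 without cHF+R replicate 1, 1 and 3 without cHF+R replicate 6). Pltp, the phospholipid transfer protein, ran from -0.50 to 0.53 and from -0.04 to 1.28 in these groups and fell 1.8-fold (-0.85 ± 0.162, adjusted p = 0.00141). Pemt and Pcyt1a, the key enzymes of both routes to phosphatidylcholine, had changes of -0.03 (adjusted p = 0.716) and -0.18 (adjusted p = 0.125).

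In the acute phase list (20 genes) 2 rose and 1 fell, against 3.31% and 3.82% of all genes. With cHF+R replicate 3 left out 2 rose and 4 fell. Apcs, serum amyloid P, lay between -0.58 and 0.13 in cHF+PC+R and between 0.48 and 2.20 in cHF+R and fell 2.29-fold (-1.19 ± 0.181, adjusted p = 0.000115) without overlap, while Saa4 rose by 0.41 ± 0.082 (adjusted p = 0.00227). Among clock genes (16 tested) 2 rose, against 3.31% of all genes. Only 1 rose without cHF+PC+R replicate 1, 3, 4 or 7 or cHF+R replicate 1, 2, 4, 5 or 6. Cry2, a repressor of the clock, rose by 0.41 ± 0.084 (adjusted p = 0.00259). Of 13 antioxidant and metallothionein genes 3 rose and 0 fell, against 3.31% of all genes called higher. Prdx6 and Gpx1, which reduce peroxides, rose by 0.36 ± 0.061 (adjusted p = 0.000407) and 0.32 ± 0.073 (adjusted p = 0.00684). Of 18 cell cycle genes 4 fell and 0 rose, against 3.82% of all genes called lower, with a median of -0.13 that was lower on 6 of 6 slides. The count was 2 without cHF+PC+R replicate 1, 2, 4, 5 or 7 or cHF+R replicate 1, 2 or 3. Rrm2, a subunit of ribonucleotide reductase, and the cell cycle inhibitor Cdkn1a fell by 0.72 ± 0.157 (adjusted p = 0.00483) and 0.65 ± 0.162 (adjusted p = 0.0135). Cox7a1 was the only called gene of 22 in the respiratory chain (-0.60 ± 0.116, adjusted p = 0.00178). In limma 0 of 19 interferon-stimulated, 0 of 15 antigen presentation and 0 of 15 endoplasmic reticulum chaperone genes were called, with 3, 1 and 5 at an unadjusted p under 0.05.

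Among cell type markers, the 13 tested hepatocyte markers included Alb, Ttr and Apoh, each bright on these arrays. Of 17 Kupffer cell and macrophage markers 0 were called (3 at an unadjusted p under 0.05), with a median of -0.12 and list levels from -0.33 to 0.15 in cHF+PC+R and from -0.12 to 0.57 in cHF+R livers. Of 14 stellate cell and matrix markers 1 fell, Lrat, which esterifies retinol for storage and ran from -0.24 to 0.49 in cHF+PC+R and from 0.43 to 0.87 in cHF+R (-0.58 ± 0.094, adjusted p = 0.000287). Lymphocyte (10), neutrophil and erythroid (5) and pancreas and muscle (4) markers gave 0 calls and 0, 1 and 1 at an unadjusted p under 0.05. Of 11 endothelial markers 1 fell, Cdh5 (-0.15, adjusted p = 0.0484). Leaving out any of 10 single livers ended that call (adjusted p up to 0.114), as did leaving out both replicates 6 (0.109). The part of any of these cell types in the results above was not tested.

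The same phospholipid difference without the drug, cHF+PC minus cHF, shares no array with the one above. There 763 genes (3.92%) were called. Of the 1389 genes called with rosiglitazone 336 (24.2%, or 44% of the 763) were also called without it, and 336 of 336 had the same sign. Of all 1389 the sign was the same in 1292, and of the 763 in 732. Over 19458 genes, which are not independent, the changes had r = 0.67. The test of the difference between them called 0 genes (0%) in limma, with 1291 (6.63%) at an unadjusted p under 0.05 and a smallest adjusted p of 0.155.

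The list medians with and without rosiglitazone stand side by side. Cholesterol synthesis had a median of -0.70 with 13 of 20 lower in cHF+PC+R against cHF+R, and of -0.73 with 18 lower in cHF+PC against cHF. Fatty acid synthesis had -1.04 with 10 lower and -0.81 with 6 lower. Lipid droplet genes had -0.34 with 4 lower and -0.12 with 0 lower, and NADPH supply -0.36 with 5 lower and -0.12 with 0 lower. Omega-oxidation had 0.73 with 4 higher and 1.20 with 7 higher, and Cyp2c cytochromes 1.19 with 6 higher and 0.35 with 0 higher. None of these list differences was tested as a list.

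Single genes with gaps between the backgrounds, picked after their values were seen and not by rank, lay on both sides. Krt23 had changes of 2.40 with rosiglitazone and 3.58 without it (interaction -1.18 ± 0.381, adjusted p = 0.607). Cyp4a10 had 1.01 and 1.77 (-0.76 ± 0.218, adjusted p = 0.517), and Ehhadh 0.44 and 1.12 (-0.67 ± 0.164, adjusted p = 0.294). The Cyp2c genes were the other way round, with Cyp2c37 at 1.35 and 0.30 (1.05 ± 0.211, adjusted p = 0.155) and Cyp2c54 at 1.63 and 0.40 (1.23 ± 0.268, adjusted p = 0.198). Cyp7a1 had -2.11 and -1.13 (-0.98 ± 0.429, adjusted p = 0.72). Fabp5, Gm6100 and Fabp5l2 fell with rosiglitazone and had changes of 0.06, 0.08 and -0.004 without it (interactions of -1.65, -1.73 and -1.81, adjusted p = 0.167, 0.155 and 0.155), and Fam183b had -1.86 and 0.05 (-1.91 ± 0.452, adjusted p = 0.276). Without cHF+PC+R replicate 6 the interaction passed for 4 genes, Fabp5, Gm6100, Fabp5l2 and Smcp (adjusted p = 0.0129, 0.00844, 0.00844 and 0.00844). Without both replicates 6 it passed for 5, these and Fam183b (-2.29, adjusted p = 0.016). Both livers were picked for lying nearer the other group, so these calls are no independent support. The signals of Fabp5 and Gm6100 cannot be told apart, so their calls are not separate results.

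**Figure D5:**
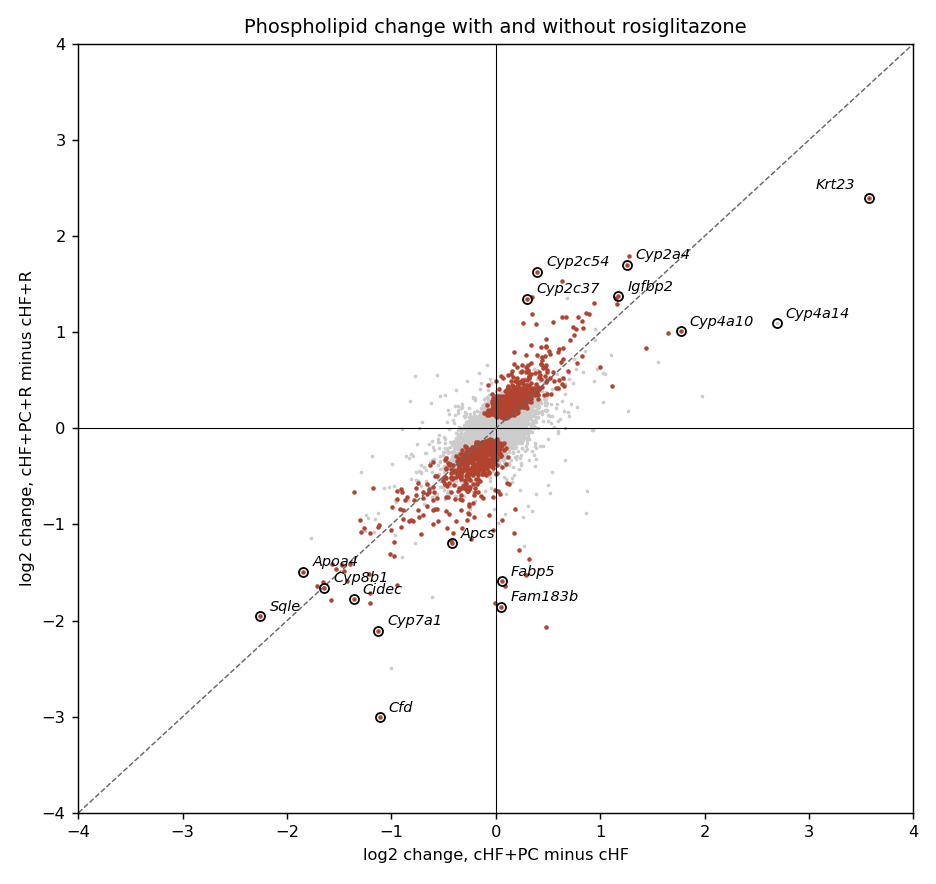
Log2 change of each of 19458 genes in cHF+PC+R minus cHF+R livers (vertical axis) against that in cHF+PC minus cHF livers (horizontal axis), with the 1389 genes called on the vertical axis in red, equal changes on the dashed line and single genes ringed and named. Most red points lie in the lower left and upper right, with Krt23 farthest right (3.58) and Fabp5 and Fam183b low on the vertical axis at about 0 on the horizontal one.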

How the data were processed

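RNA from each of 29 livers (Cy5) and a common pool of all of them (Cy3) were hybridised to 2-colour Agilent arrays with no dye swap, 1 array per liver, on 8 slides read on 1 scan day. Spot and local background intensities are as the authors deposited them, from Agilent Feature Extraction 10.5.1.1 per the submitters' processing notes and the file headers. Probe positions are mm9. Per the series' design text the authors left out 1 cHF and 1 cHF+R array. From the mean and background intensities, ratios were computed with limma 3.58.1 in R 4.3.3 with normexp background correction (offset 50) and loess within arrays. Outlier spots were dropped and spots of a probe averaged. Of 39429 probes 23932 had a Cy5 signal flagged as above background on 6 or more arrays and a value on 20 or more, and the brightest probe of each gene gave 19458 genes. Missing values (0.481%) were not imputed. Names came from accessions (26518 probes), symbols (3785) or synonyms (716) of a GRCm38.p6 table, and otherwise from the files (8410).

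All 29 arrays entered a single lmFit and eBayes fit with 4 group means, with two-sided tests adjusted by Benjamini-Hochberg over all genes (threshold 0.05). The interaction is the cHF+PC+R minus cHF+R difference less the cHF+PC minus cHF difference. Livers are separate animals. The 45 gene lists (655 genes) and the comparison were chosen with earlier results of these data known. The naming rule took the 12 largest called rises and falls, from each list the called members of smallest adjusted p, 4 at most (where 0 passed, the member with the smallest p), and a set of anchor genes. Other list members and the interaction genes were named after their values were seen, and some list members are not reported here. Alternatives covered the background correction, the normalization, the filter, the probe choice, the slide or replicate number as a block, array weights, an intensity trend, the samples fitted and each left-out array. One was the deposited log2 value table, which followed the Cy5 channel (r = 0.989 to 0.999 with each array's own log2 intensity) and had a median of 9.03 in every column. Of its 29 columns 27 correlated best with their own array. The deposited table holds no ratio to the pool, and its normalization by the authors is not given in these sources. The scripts were tested on simulated data. Figures were drawn with matplotlib 3.10.9 in Python 3.11.15.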

Additional observations from a re-analysis of the deposited data

Results flagged for a closer look

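Of 256 sets of 4 to 10 livers (a named gene in 1 group), 16 held a single liver far from the rest of its group by Dixon's test, and chance gives about 5%. In cHF+PC+R replicate 6 these were the log2 ratios of Igfbp2 (-0.148), Lrp1 (-0.514), Abhd5 (0.483), Lrat (0.486) and Cel (-0.126). In cHF+R replicate 6 they were those of Acacb (-0.675), Abhd5 (-0.0907), Ahsg (0.878) and Lpl (1.5). Both livers are those whose profiles correlated more closely with the other group's mean. In cHF+PC+R replicate 4 Cyp4a32 (1.26), Pygl (-0.801) and Cry2 (-0.363) stood apart. Single values were Pck1 in cHF+PC+R replicate 7 (1.75), Ppara in cHF+PC+R replicate 2 (-0.437), Apcs in cHF+R replicate 1 (2.20) and Cat in cHF+R replicate 3 (0.130).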

How the results depend on the processing

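The count of 1389 called genes lay within 1.5 times of itself under 10 of the 14 other settings that kept every liver, from 1101 (no filter on dim probes) to 1755 (array weights). It was 53 with median centring, 74 with loess and scaling between arrays, 659 with Cy5 alone after quantile normalization and 786 with only both compared groups in the fit. Leaving out single livers gave 761 to 1976, and leaving out both replicates 6, chosen after seeing the data, gave 2373. The interaction had 0 calls, 3 with array weights, 0 to 4 with a liver left out and 5 without both replicates 6, and could not be fitted with only both compared groups. Of the 114 called named genes, 85 kept their call whichever of the 14 livers was left out, and Cyp7a1, Fam183b and Slco1a4 kept it under every alternative. Etfb changed sign with median centring (-0.108, adjusted p = 0.982). The list medians of cholesterol synthesis, fatty acid synthesis, NADPH supply, omega-oxidation, lipid droplets, Cyp2c, xenobiotic and urea cycle genes kept their sign under all 29 alternatives. The replicate numbers did not pair the livers: the same-number correlation of deviations ran from -0.353 to 0.279 over 6 pairs, 1 of 6 livers correlated best with its own number, and the replicate block gave 1381 calls. The causes of these differences were not tested. Dim probes carry only a bound, and 8 and 6 arrays limit what small changes could be called.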
